A study of Danio rerio with 10 samples.

Results

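The genes described here are those of lipid and lipoprotein metabolism on a zebrafish oligonucleotide array. They are the probes with a single annotation symbol that begins with a stem for apolipoproteins A, B, C, E and M or pltp, lipoprotein receptors (vldlr, ldlr), lipases (lpl, lipa, lipc, lipg), fatty acid binding proteins (fabp, with fabp10a left out), desaturases and elongases (fads, scd, elovl), acyl-CoA synthetases (acsl, acss), fatty acid oxidation (cpt1, cpt2, acad, acox, hadh), sterol synthesis (hmgc, fdps, fdft, sqle, dhcr), oxysterol binding proteins (osbp) and glycerolipid synthesis or storage (agpat, dgat, plin). The rule gave 43 probes for 38 genes, out of 16416 probes on the array and 6088 that carry 1 symbol, and it used no measured value. 33 genes had 1 probe, and apoba, ldlrad3, elovl5, acss2 and agpat5 had 2 each. All 43 probes had enough values to be tested. No probe was found under the stems for apolipoprotein C, pltp, lipa, lipc, scd, cpt2, acox, hadh, sqle or plin, and these genes were not analysed here.

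Lipoproteins carry triglyceride and cholesterol through the blood on apolipoproteins, lipases on vessel walls free fatty acids from them, and receptors take the particles into cells. Inside cells fatty acids are bound by carrier proteins, activated to acyl-CoA, and then lengthened and desaturated, burned in mitochondria, or built into triglyceride and phospholipid. In egg-laying vertebrates estrogen makes the liver secrete vitellogenin, a yolk precursor that is itself a lipid-carrying protein, so the same organ supplies yolk and plasma lipoproteins.

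RNA was taken from 10 single adult male zebrafish, extracted from the entire frozen animal. The 4 control fish were kept in water with 0.01% (v/v) ethanol, the solvent that all 3 groups received. The 3 E2 fish were given 17β-estradiol (E2), and the 3 E2+ICI fish the same E2 together with 1 µM ICI (fulvestrant, an estrogen receptor antagonist), both for 96 h. The treatment protocol states 10 nM E2, while the sample titles state 10 mM. Strain, genotype and age were not given in the labels, and there was no group with ICI alone. Each fish was labelled with Cy3 and hybridised on 1 array against a common Cy5 reference, described as RNA of pooled male and female liver. The values are log2 ratios of fish to reference. That direction is not written in the tables: it was taken from the dyes and from vtg3, a vitellogenin gene induced by estrogen, whose mean read in this direction was -6.44 in control fish, 1.22 with E2 and -0.15 with E2+ICI.

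The arrays of each group resembled each other (correlations over all probes of 0.676 to 0.898 among control arrays, 0.703 to 0.818 among those of E2 and 0.646 to 0.789 among those of E2+ICI), whereas control and E2 arrays correlated at only -0.08 to 0.14. The spread of the ratios differed between the groups, with an SD over probes of 0.796 to 1.07 on control arrays, 0.461 to 0.514 on E2 arrays and 0.373 to 0.561 on E2+ICI arrays. Because the animals were measured whole, marker genes of single organs were followed beside the lipid genes. The median ratio of 10 oocyte probes was -5.59 to -4.19 on the control arrays, 0.21 to 0.36 on the E2 arrays and -1.37 to 0.01 on the E2+ICI arrays, although the fish were labelled as males, and all 10 probes passed as higher in E2. The median of 10 liver probes lay at -0.01 to 1.12 for control fish, -1.28 to -1.21 for E2 fish and 0.01 to 0.08 for E2+ICI fish, with 8 probes lower and 1 higher in E2. The median of 17 skeletal muscle probes was below 0 on all 10 arrays (-0.74 to -0.11), although the reference was described as liver and the fish as whole bodies. On control arrays 1 and 4 and array E2+ICI 2 the muscle median was itself a value that the array repeats over 61 to 93 probes, and on array E2+ICI 3 the liver and oocyte medians were such a value (0.01, over 373 probes, 2 of the liver and 4 of the oocyte list). Without the repeated values, a choice made after seeing the data, the muscle medians were -0.95 to -0.12, and the liver and oocyte medians of array E2+ICI 3 were -0.08 and -0.17. Over all probes tested, 19.2% passed as higher and 16.5% as lower in E2 against control. In whole animals, fewer cells of a type and less RNA per cell cannot be told apart.

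**Figure D1:**
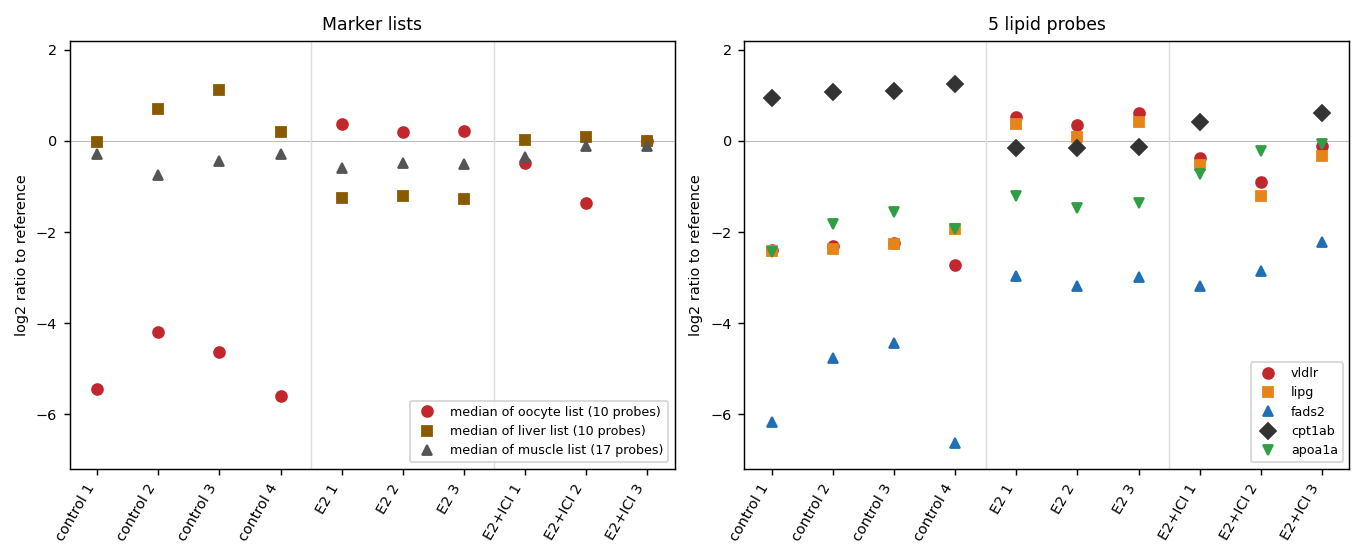
Median log2 ratio to the reference of the oocyte, liver and skeletal muscle marker lists (left) and log2 ratio of 5 lipid probes (right) on each of the 10 arrays, 1 point per array or list median. The oocyte median lies below -4 on the control arrays and above 0 on the E2 arrays, vldlr and lipg lie near -2 in control and above 0 in E2, and cpt1ab has no value on array E2+ICI 2.

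Differences were tested with limma over all 16208 probes with enough values, with Benjamini-Hochberg adjustment over all of them, and 0.05 was the threshold for the adjusted p. In E2 against control, 15 of the 43 lipid probes passed (34.9%), while 35.6% of all probes passed. The lipid probes were thus called at about the rate of the array, with 6 higher in E2 (14%, against 19.2% of all probes) and 9 lower (20.9%, against 16.5%). The median difference was -0.12 over the lipid probes and -0.07 over all probes. The E2 and control values did not overlap for 8 lipid probes that were higher in E2 (22% of all probes) and for 10 that were lower (21% of all probes). In E2+ICI against control, 8 lipid probes passed (18.6%, against 12% of all probes), 6 of them higher (8.92% of all probes) and 2 lower (3.04% of all probes). The values of these groups did not overlap for 6 lipid probes that were higher in E2+ICI (15.5% of all probes) and 3 that were lower (9.53% of all probes). Between E2+ICI and E2, 5 passed (11.6%, against 5.42% of all probes), 3 higher (2.88% of all probes) and 2 lower (2.54% of all probes), and the values did not overlap for 12 that were higher in E2+ICI (22.7% of all probes) and 5 that were lower (19.9% of all probes). 17 of the 43 probes, each for a different gene, passed in at least 1 comparison. With E2+ICI fish 1 left out, 39 lipid probes had enough values, and 5 of them were lower in E2 than in control (15.1% of all probes). The comparisons with control share the control arrays, and both treated groups enter 2 comparisons each.

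**Figure D2:**
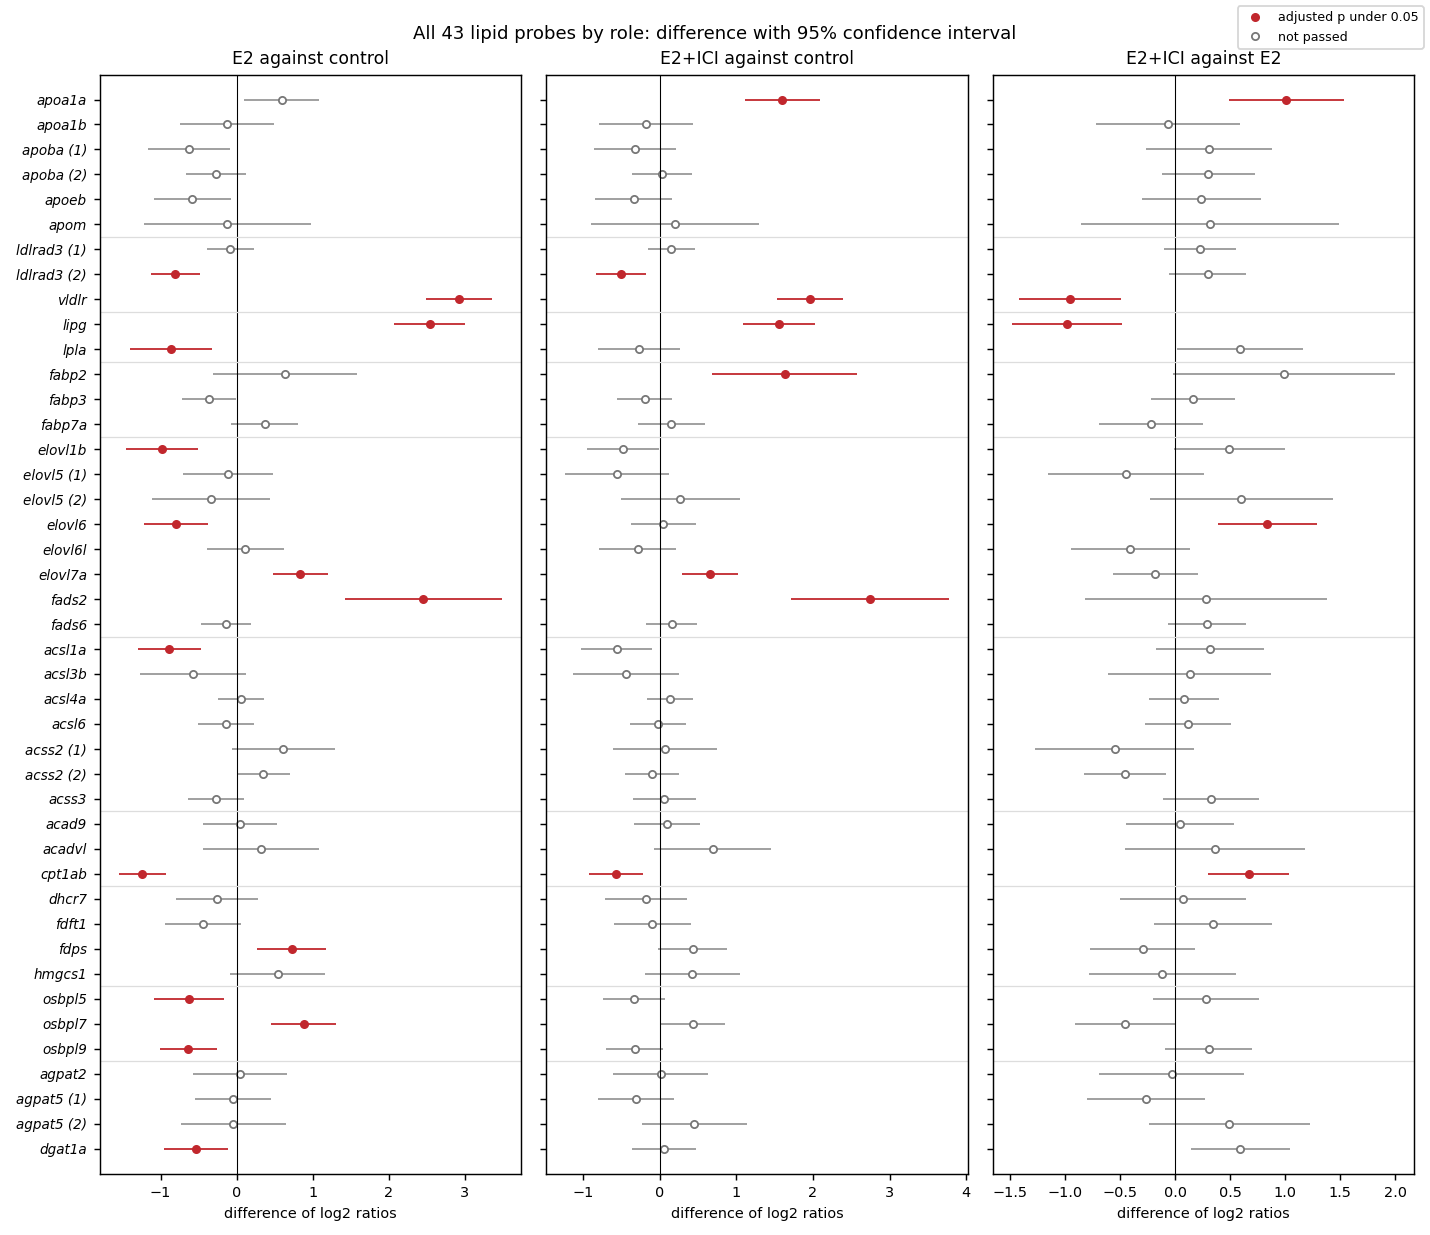
Difference of the group mean log2 ratios, with its 95% confidence interval, for all 43 lipid probes in the 3 comparisons, ordered by role; filled red points passed the threshold, and (1) and (2) mark the probes of a gene with 2 probes, in order of probe number. The widest differences in E2 against control are those of vldlr (2.92), lipg (2.54) and fads2 (2.46) upward and cpt1ab (-1.24) downward.

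Among the lipoprotein receptors, vldlr, the very low density lipoprotein receptor, showed the largest difference of all lipid probes in E2 against control. In the chicken this receptor takes vitellogenin and very low density lipoprotein into the growing oocyte. The vldlr ratios (probe 5282009) were -2.39, -2.31, -2.25 and -2.72 in the control fish, 0.53, 0.35 and 0.62 in the E2 fish, and -0.37, -0.90 and -0.11 in the E2+ICI fish. Every E2 fish lay above 0, every E2+ICI fish lay between the E2 and the control fish, and no pair of groups overlapped. The mean was higher by 2.92 ± 0.20 (SE) in E2 than in control, which is 7.56-fold (adjusted p = 1.86e-06), and higher by 1.96 ± 0.20 in E2+ICI than in control (adjusted p = 8.83e-05). E2+ICI was lower than E2 by a difference of -0.96 ± 0.21 (adjusted p = 0.0289), a call that was lost with any 1 of the E2 fish or E2+ICI fish 1 or 2 left out (adjusted p of 0.0671 to 0.118). Among the ratios of its own array, vldlr ranked at percentile 1.90 to 2.5 for control fish, 86.3 to 96.0 for E2 fish and 7.75 to 34.9 for E2+ICI fish. The oocyte list moved in the same order over the groups, from a median of at most -4.19 in control to at least 0.21 in E2, and its part in the vldlr result was not tested.

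The other receptor-like gene was ldlrad3, a membrane protein named for its low density lipoprotein receptor class A domain, and its 2 probes differed. Probe 5285569 read 0.47, 0.79, 0.53 and 0.80 in control, -0.19, -0.31 and 0.03 in E2, and 0.18, 0.17 and 0.07 in E2+ICI. All treated fish lay below all control fish. This probe was lower in E2, with a difference of -0.81 ± 0.15 (adjusted p = 0.00155), and in E2+ICI, with -0.51 ± 0.15 (adjusted p = 0.0471). Probe 5282609 of the same gene read 0.11, -0.15, 0.14 and 0.12 in control, -0.04, 0.06 and -0.10 in E2, and 0.07, 0.20 and 0.35 in E2+ICI, and passed in no comparison (differences against control of -0.08 with a 95% interval of -0.39 to 0.22 in E2 and 0.15 with -0.16 to 0.45 in E2+ICI). The 2 probes were spotted for 1 gene symbol, and which of them measures the gene better was not tested. The E2+ICI call on probe 5285569 was lost with any 1 of 9 of the 10 arrays left out, all except control 1 (adjusted p of 0.0581 to 0.177).

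The 2 lipases moved in opposite directions with E2. lipg encodes endothelial lipase, which acts mainly on the phospholipids of high density lipoprotein. Its ratios (probe 5283106) were -2.41, -2.38, -2.26 and -1.94 in control, 0.37, 0.08 and 0.41 in E2, and -0.53, -1.2 and -0.34 in E2+ICI. The order of the fish was that of vldlr, with E2 highest, E2+ICI between and no overlap. The lipg difference was 2.54 ± 0.21 in E2 against control (5.80-fold, adjusted p = 7.40e-06), 1.56 ± 0.21 in E2+ICI against control (adjusted p = 0.000708) and -0.98 ± 0.23 in E2+ICI against E2 (adjusted p = 0.0347). The last call was lost with any 1 of the E2 fish or E2+ICI fish 1 or 2 left out (adjusted p of 0.0690 to 0.129). When all arrays were forced to 1 distribution by quantile normalization, the lipg difference in E2+ICI against control dropped to 0.54 and no longer passed (adjusted p = 0.183). lpla encodes lipoprotein lipase, which frees fatty acids from circulating triglyceride. Its ratios (probe 5270112) were -0.15, -0.28, -0.24 and -0.43 in control, -1.32, -1.04 and -1.07 in E2, and -0.16, -1.27 and -0.22 in E2+ICI. The E2+ICI fish were split, with 2 in the control range and fish 2 in the E2 range. lpla was lower in E2, with a difference of -0.86 ± 0.24 (1.82-fold, adjusted p = 0.0172), a call that was lost without E2 fish 1 (-0.77, adjusted p = 0.0717). The differences of -0.27 in E2+ICI against control and 0.59 against E2 did not pass (adjusted p = 0.527 and 0.193). The 3 adipose marker probes had a median of -0.36 to 0.82 for control fish, -1.38 to -0.76 for E2 fish and 0.01 to 0.40 for E2+ICI fish, with 2 of 3 lower in E2, and their part in the lpla result was not tested.

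**Figure D3:**
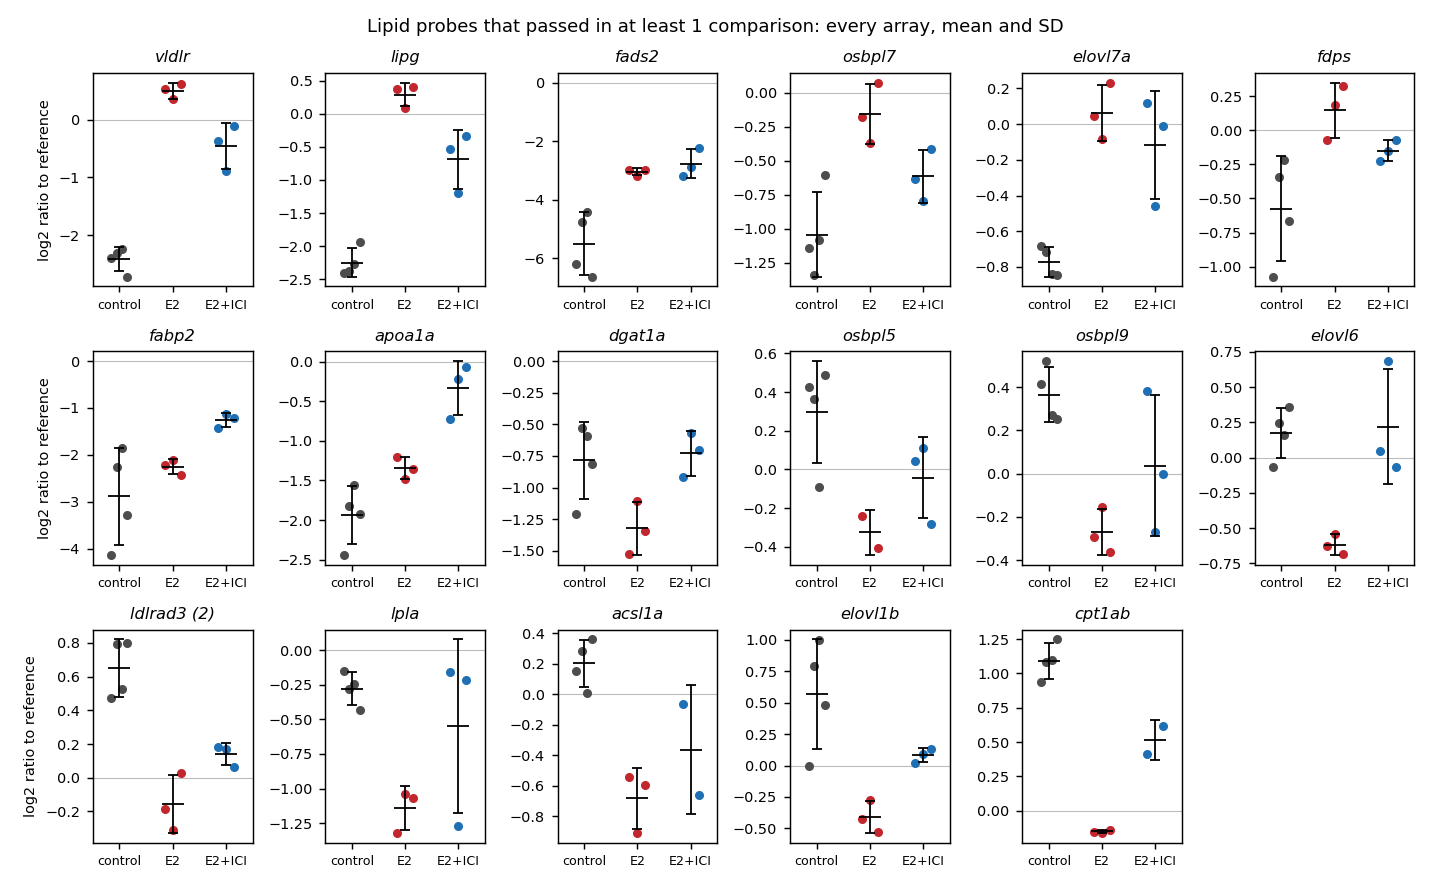
Log2 ratio to the reference on every array for the 17 lipid probes that passed in at least 1 comparison, with 1 point per fish (control 4, E2 3, E2+ICI 3, less the missing values) and the mean and SD of each group as lines. The vertical axes differ between panels. The vldlr, lipg, fads2 and cpt1ab panels show E2 and control fish far apart, and the lpla and elovl6 panels show 1 E2+ICI fish away from the other two.

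No apolipoprotein probe passed in E2 against control (0 of 6 by limma, beside 35.6% of all probes). 3 of the 6 had an unadjusted p under 0.05, beside 45.1% of all probes. apoa1a, which encodes the main protein of high density lipoprotein, was the one apolipoprotein probe that passed elsewhere. Its ratios (probe 5269891) were -2.44, -1.82, -1.55 and -1.93 in control, -1.2, -1.48 and -1.36 in E2, and -0.72, -0.22 and -0.07 in E2+ICI. On the deposited scale the E2+ICI fish were highest, above all E2 fish, which in turn lay above all control fish. Among the ratios of its own array, apoa1a ranked at percentile 2.38 to 5.35 for control fish and 1.12 to 2.88 for E2 fish. For E2+ICI fish 1, 2 and 3 the percentiles were 2.80, 31.4 and 40.3. By rank the E2 fish were thus not above all control fish, and E2+ICI fish 1 lay in the control range. The difference was 1.60 ± 0.22 in E2+ICI against control (3.03-fold, adjusted p = 0.000787), 1.01 ± 0.24 in E2+ICI against E2 (2.01-fold, adjusted p = 0.0366) and 0.59 ± 0.22 in E2 against control (adjusted p = 0.0587). Quantile normalization reduced the first of these to 0.72 (adjusted p = 0.179), and the second did not pass without control fish 2, any 1 of the E2 fish, or E2+ICI fish 2 or 3 (adjusted p of 0.0502 to 0.136). The median of the liver list was between 0.01 and 0.08 on the E2+ICI arrays and between -1.28 and -1.21 on the E2 arrays (-0.08 on array E2+ICI 3 without its repeated value), and its part in the apoa1a result was not tested.

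The other apolipoprotein probes passed nowhere. apoba encodes the large structural protein of very low and low density lipoprotein. Its probe 5271679 read -1.16, -0.33, 0.07 and -0.49 in control, -1.26, -1.10 and -0.96 in E2, and -0.93, -0.61 and -0.86 in E2+ICI, a difference of -0.63 ± 0.25 in E2 against control (adjusted p = 0.0664). The second apoba probe, 5273115, read -0.27, -0.02, -0.21 and -0.21 in control, -0.44, -0.73 and -0.18 in E2, and 0.13, -0.11 and -0.46 in E2+ICI, with a difference of -0.27 ± 0.18 (adjusted p = 0.269). Both probes therefore pointed down in E2 without passing, and the difference in E2+ICI against control had opposite signs on the 2 probes (-0.32 and 0.03). apoeb, an apolipoprotein that binds lipoprotein receptors, had group means of 1.50 ± 0.19 (SD, n = 4) in control, 0.92 ± 0.08 (SD, n = 3) in E2 and 1.16 ± 0.57 (SD, n = 3) in E2+ICI, with an adjusted p of 0.0716 for E2. apom, carried mostly on high density lipoprotein, varied most among the control fish (-1.37 to 1.05), so that the interval of its E2 difference reached from -1.22 to 0.97. apoa1b, the second apolipoprotein A-I gene, differed from control by -0.12 in E2 and -0.19 in E2+ICI, but 5 of its 10 values equalled a value that its array repeats over many probes.

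Of the fatty acid binding proteins, none of 3 passed in E2 against control (limma, beside 35.6% of all probes). 1 of them had an unadjusted p under 0.05, beside 45.1% of all probes. fabp2, the intestinal form, passed in E2+ICI against control. Its ratios (probe 5270600) were -4.14, -2.26, -1.86 and -3.29 in control, -2.21, -2.12 and -2.43 in E2, and -1.43, -1.14 and -1.21 in E2+ICI. On the deposited scale all E2+ICI fish lay above all other fish, and the control fish spread over more than the other groups. Among the ratios of its own array, fabp2 ranked at percentile 0.85 to 2.78 for control fish and 0.29 to 0.47 for E2 fish. For E2+ICI fish 1, 2 and 3 the percentiles were 0.56, 3.83 and 1.16. By rank the E2 fish thus lay below all control fish. E2+ICI fish 1 lay below, fish 2 above and fish 3 within the control range. The difference was 1.63 ± 0.43 (adjusted p = 0.0308) on the deposited scale, but it turned to -0.22 (adjusted p = 0.746) under quantile normalization, fell to 0.42 when the arrays were scaled to equal spread, and did not pass without E2+ICI fish 1, 2 or 3 or E2 fish 3 (adjusted p of 0.0503 to 0.113). None of the 3 intestine marker probes passed in any comparison, with medians of -0.74 to 0.37 in control and -0.53 to -0.03 in E2+ICI. In E2+ICI against control, where 12% of all probes passed, slc15a1b differed by 0.91, vil1 by -0.29 and cdh17 by 0.12. The adjusted p of these limma differences was 0.0801, 0.501 and 0.815. The part of the intestine markers in the fabp2 result was not tested. fabp3, the heart and muscle form, had a mean of 0.55 ± 0.17 (SD, n = 4) in control and 0.19 ± 0.10 (SD, n = 3) in E2 and did not pass (adjusted p = 0.106). fabp7a, the brain form, did not pass either (0.37 ± 0.20 in E2 against control, adjusted p = 0.179).

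Of the 8 desaturase and elongase probes, 2 were higher and 2 lower in E2 (19.2% and 16.5% of all probes). fads2 encodes the desaturase that introduces double bonds on the way to long polyunsaturated fatty acids, and in zebrafish 1 enzyme carries out both front-end desaturation steps. Its ratios (probe 5270152) were -6.18, -4.76, -4.43 and -6.63 in control, -2.97, -3.18 and -2.98 in E2, and -3.18, -2.87 and -2.22 in E2+ICI. Every treated fish lay above every control fish, and the 2 treated groups overlapped. On the deposited scale fads2 was higher by 2.46 ± 0.47 in E2 (adjusted p = 0.00192) and 2.74 ± 0.47 in E2+ICI (adjusted p = 0.00298), whereas under quantile normalization both differences turned negative (-0.57 and -0.72, adjusted p = 0.157 and 0.180) and with equal spread they fell to 0.14 and 0.38. On each of the 10 arrays fads2 was among the lowest ratios, at percentile 0.02 to 0.40 of the probes. The lowest ratio on an array was itself -8.01 to -6.24 for control fish, -5.78 to -4.52 for E2 fish and -4.83 to -4.41 for E2+ICI fish.

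The elongases extend fatty acids by adding carbon units in the endoplasmic reticulum, each with its own preferred substrates. elovl7a (probe 5282723) read -0.68, -0.72, -0.84 and -0.84 in control, 0.04, -0.09 and 0.23 in E2, and 0.12, -0.46 and -0.01 in E2+ICI. Every treated fish lay above every control fish. The difference was 0.83 ± 0.16 in E2 (1.78-fold, adjusted p = 0.00237) and 0.65 ± 0.16 in E2+ICI (adjusted p = 0.0251), and the latter was lost without control fish 3 or E2+ICI fish 1 or 3 (adjusted p of 0.0568 to 0.118). elovl1b, of the branch that makes very long chain fatty acids, read -0.01, 0.80, 1.00 and 0.48 in control, -0.42, -0.28 and -0.53 in E2, and 0.02, 0.09 and 0.13 in E2+ICI (probe 5284670). It was lower in E2, with a difference of -0.98 ± 0.21 (adjusted p = 0.00432), and in E2+ICI the difference of -0.49 ± 0.21 did not pass (adjusted p = 0.176). elovl6 elongates palmitate to stearate, the step after fatty acid synthase. Its ratios (probe 5270841) were -0.07, 0.24, 0.16 and 0.36 in control, -0.63, -0.54 and -0.68 in E2, and 0.04, 0.68 and -0.07 in E2+ICI. The E2 fish lay below all other fish, and the E2+ICI fish overlapped with control. The elovl6 difference was -0.79 ± 0.19 in E2 against control (adjusted p = 0.00766), 0.84 ± 0.20 in E2+ICI against E2 (adjusted p = 0.0399) and 0.05 in E2+ICI against control (95% interval -0.37 to 0.47). The call against E2 was lost without control fish 2 or 3, any 1 of the E2 fish, or E2+ICI fish 1 or 2 (adjusted p of 0.0526 to 0.137).

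elovl5, the elongase of polyunsaturated fatty acids, did not pass on either probe, and its probes disagreed in sign for E2+ICI. Probe 5281120 read 0.23, 0.71, 1.32 and 1.2 in control, 0.75, 1.01 and 0.50 in E2, and 0.08 and 0.54 in the 2 E2+ICI fish with a value. Probe 5283835 read 0.52, 0.52, 0.61 and -1.02 in control, -0.49, 0.19 and -0.23 in E2, and 0.48, 0.56 and 0.23 in E2+ICI. The differences in E2+ICI against control were -0.56 on the first probe and 0.27 on the second (adjusted p = 0.280 and 0.681). The remaining members, elovl6l and fads6, differed by 0.12 and -0.14 in E2 against control and did not pass (adjusted p = 0.730 and 0.515).

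Of the 7 acyl-CoA synthetase probes, which activate fatty acids or acetate for every later step, 1 passed, in E2 against control (35.6% of all probes). acsl1a, a long chain acyl-CoA synthetase of liver and fat, read 0.15, 0.29, 0.01 and 0.36 in control, -0.54, -0.91 and -0.59 in E2, and -0.06 and -0.66 in E2+ICI fish 1 and 3 (probe 5280335, no value for fish 2). No treated fish reached the lowest control fish. The difference was -0.88 ± 0.18 in E2 (1.84-fold, adjusted p = 0.00404) and -0.57 ± 0.21 in E2+ICI (adjusted p = 0.115). acss2, which makes acetyl-CoA from acetate, has 2 probes. Probe 5276375 read -0.31, -0.20, -0.19 and -1.33 in control, 0.03, -0.11 and 0.40 in E2, and -0.16, -1.02 and -0.14 in E2+ICI. Probe 5279954 read -0.26, -0.09, 0.27 and 0.08 in control, 0.25, 0.27 and 0.53 in E2, and -0.11, -0.18 and -0.02 in E2+ICI. On both probes the E2 mean was the highest of the 3 groups, with differences from control of 0.61 and 0.35 that did not pass (adjusted p = 0.146 and 0.112). acsl3b, acsl4a, acsl6 and acss3 differed by -0.57 to 0.06 in E2 against control without passing.

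The clearest lower member was cpt1ab, a carnitine palmitoyltransferase, the enzyme that controls entry of long chain fatty acids into mitochondria for oxidation. Its ratios (probe 5274543) were 0.93, 1.08, 1.09 and 1.25 in control, -0.15, -0.16 and -0.14 in E2, and 0.41 and 0.62 in E2+ICI fish 1 and 3, with no value for fish 2. On the deposited scale the 3 groups were fully separated, and the SD of the E2 fish was 0.01 (n = 3). Among the ratios of its own array, cpt1ab ranked at percentile 94.7 to 97.5 for control fish and 31.4 to 34.7 for E2 fish. For E2+ICI fish 1 and 3 the percentiles were 92.0 and 96.0. By rank E2+ICI fish 3 thus lay in the control range. The cpt1ab difference was -1.24 ± 0.14 in E2 against control (2.36-fold lower, adjusted p = 8.78e-05), -0.57 ± 0.16 in E2+ICI against control (adjusted p = 0.0399) and 0.67 ± 0.17 in E2+ICI against E2 (adjusted p = 0.0454). The E2+ICI difference from control shrank to -0.11 under quantile normalization and -0.06 with equal spread (adjusted p = 0.744 and 0.870). It also lost its call without control fish 2 or 3 or any 1 of the E2 fish (adjusted p of 0.0621 to 0.0736). The call against E2 was lost without control fish 2 or 3, any 1 of the E2 fish, or E2+ICI fish 2 (adjusted p of 0.0597 to 0.133). Leaving out a control fish or E2+ICI fish 2, which had no value, does not change the cpt1ab means compared. There only the estimated spread and the adjustment over all probes changed, and without E2+ICI fish 2 0.601% of all probes were called higher, beside 2.88%. Without E2+ICI fish 1 or 3 cpt1ab had too few values to be tested. The other oxidation members were acadvl, the very long chain acyl-CoA dehydrogenase, and acad9, a relative that also assembles respiratory complex I. They differed by 0.32 (95% interval -0.44 to 1.09) and 0.05 (-0.44 to 0.53) in E2 against control and did not pass.

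Among the 4 sterol synthesis probes, fdps passed in E2 against control (35.6% of all probes passed). It encodes farnesyl diphosphate synthase, which makes the precursor shared by cholesterol and isoprenoids. The fdps ratios (probe 5279907) were -1.07, -0.34, -0.21 and -0.67 in control, -0.07, 0.19 and 0.32 in E2, and -0.22, -0.15 and -0.07 in E2+ICI. All E2 fish lay above all control fish. The difference was 0.72 ± 0.20 in E2 (1.65-fold, adjusted p = 0.0171) and 0.43 ± 0.20 in E2+ICI (adjusted p = 0.214), and the E2 call was lost without E2 fish 2 or 3 (adjusted p = 0.0545 and 0.0762). hmgcs1, the cytosolic HMG-CoA synthase of the early pathway, differed by 0.54 ± 0.28 in E2 (adjusted p = 0.165), with control fish from -0.85 to 0.33. fdft1, squalene synthase, differed by -0.44 (95% interval -0.94 to 0.06), and dhcr7, which carries out the last step to cholesterol, by -0.25 (-0.79 to 0.28).

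All 3 oxysterol binding protein genes passed in E2 against control, in different directions (35.6% of all probes passed). These proteins move sterols and phospholipids at membrane contact sites. osbpl7 (probe 5274999) read -1.14, -1.34, -1.09 and -0.61 in control, -0.18, -0.37 and 0.07 in E2, and -0.64, -0.80 and -0.41 in E2+ICI, a difference of 0.88 ± 0.19 in E2 (adjusted p = 0.00448). osbpl9 (probe 5281738) read 0.41, 0.52, 0.27 and 0.25 in control, -0.29, -0.15 and -0.36 in E2, and 0.38, -0.27 and 0.00 in E2+ICI, a difference of -0.63 ± 0.17 in E2 (adjusted p = 0.0129). osbpl5 (probe 5284858) read 0.43, 0.36, -0.09 and 0.49 in control, -0.24 and -0.41 in E2 fish 2 and 3, and 0.04, 0.11 and -0.28 in E2+ICI, a difference of -0.62 ± 0.21 in E2 (adjusted p = 0.0380). For each of the 3 genes the E2 fish lay apart from the control fish on 1 side on the deposited scale. By rank among the ratios of its own array, osbpl7 in E2 fish 2 (percentile 15.9) lay in the control range (5.71 to 23.5). Between E2+ICI and control the differences were 0.43, -0.33 and -0.34 in the same gene order. None of the 3 passed (limma, adjusted p = 0.190, 0.251 and 0.274). 1 of them had an unadjusted p under 0.05, beside 26.2% of all probes. The osbpl5 call was lost without control fish 1 or 2 or E2+ICI fish 1 (adjusted p of 0.0546 to 0.0746), and that of osbpl9 without E2 fish 3 (adjusted p = 0.0546). Without E2 fish 2 or 3 osbpl5 had too few values to be tested. The osbpl7 difference in E2 was 0.56 under quantile normalization and did not pass (adjusted p = 0.0577).

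Of the 4 glycerolipid probes, dgat1a passed in E2 against control (35.6% of all probes passed). It encodes a diacylglycerol acyltransferase, the last enzyme of triglyceride synthesis. Its ratios (probe 5275719) were -1.21, -0.53, -0.59 and -0.81 in control, -1.52, -1.10 and -1.34 in E2, and -0.92, -0.57 and -0.70 in E2+ICI. The E2 and control fish overlapped through 1 fish of each, control 1 and E2 2. The difference of -0.54 ± 0.19 in E2 was close to the threshold (adjusted p = 0.0475) and lost its call without any 1 of 7 arrays, namely control 2 and 3, E2 1 and 3 and E2+ICI 1, 2 and 3 (adjusted p of 0.0526 to 0.173). The agpat genes encode acyltransferases of phosphatidic acid synthesis and passed nowhere. agpat5 probe 5276291 read 0.30, 0.21, 0.32 and 1.2 in control, 0.54, 0.26 and 0.57 in E2, and 0.19, 0.31 and 0.10 in E2+ICI. Its probe 5281962 read 0.57, 0.78, -0.08 and -0.77 in control, -0.18, 0.27 and 0.16 in E2, and 0.53, 0.51 and 0.68 in E2+ICI. The E2+ICI difference from control was -0.31 on the first probe and 0.45 on the second (adjusted p = 0.425 and 0.401). agpat2 differed by 0.04 in E2 against control (95% interval -0.57 to 0.66).

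**Figure D4:**
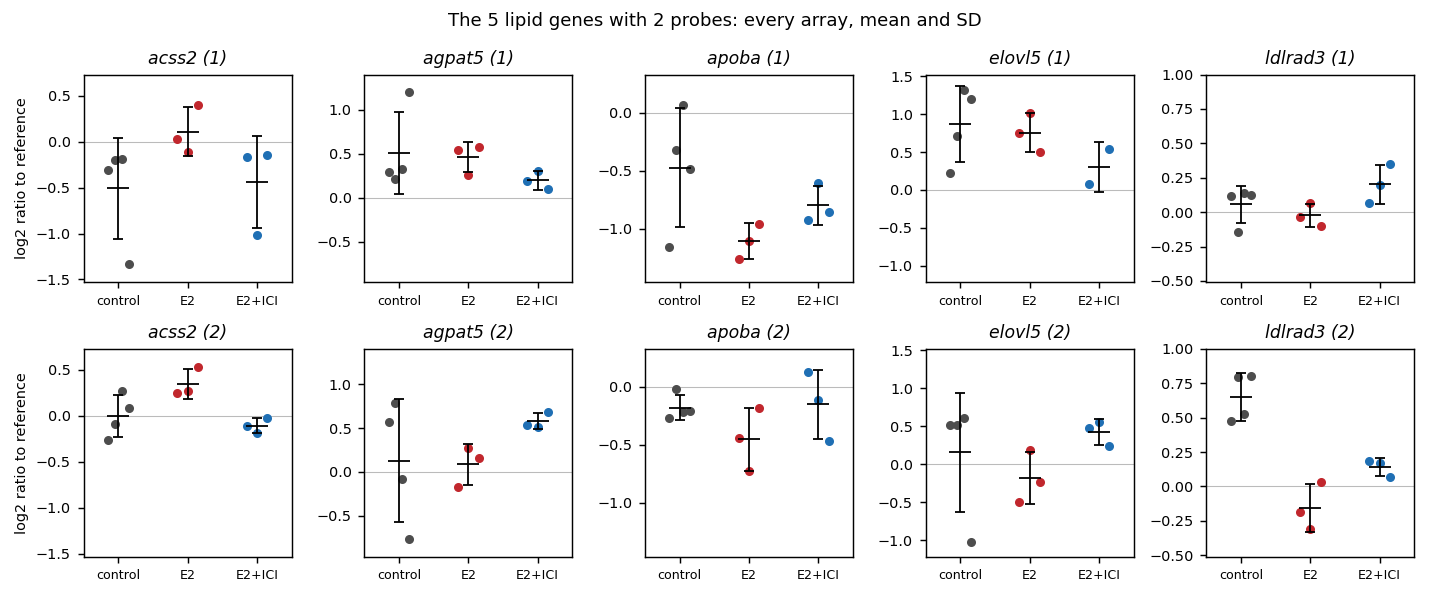
Log2 ratio to the reference on every array for both probes of the 5 lipid genes with 2 probes, with 1 point per fish and the mean and SD of each group; the 2 panels of a gene share 1 vertical range. ldlrad3 differs between groups on probe 2 (5285569) and not detectably on probe 1, and 1 control fish lies away from the others on acss2 probe 1 (-1.33), agpat5 probe 1 (1.2) and elovl5 probe 2 (-1.02).

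The 28 lipid probes that did not pass in E2 against control had differences of -0.63 to 0.63, and their 95% intervals reached 0.30 to 1.09 to each side (median 0.51). The smallest difference that passed was 0.54 in size. Changes below about that size were therefore not detectable for many members with 3 or 4 fish in a group. The ratios of the control fish varied more than those of the treated fish (median SD of a lipid probe 0.308 among control fish, 0.158 among E2 fish and 0.210 among E2+ICI fish). The SD over all probes was also widest on the control arrays (0.796 to 1.07, against 0.461 to 0.514 for E2 and 0.373 to 0.561 for E2+ICI). Whether the control animals themselves varied more was not tested.

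Scaling of the arrays affected the comparison of E2+ICI with control more than that of E2 with control. With quantile normalization 5 lipid probes passed as higher and 11 as lower in E2 against control, beside 6 and 9 on the deposited scale. Of the 6 higher calls 4 remained (fads2 and osbpl7 were lost), and all 9 lower calls remained. For E2+ICI against control 1 passed as higher (vldlr) and none as lower (limma; 4 lower at an unadjusted p under 0.05), beside 6 and 2, with the calls of apoa1a, fads2, fabp2, elovl7a, lipg, cpt1ab and ldlrad3 lost. For E2+ICI against E2 the counts rose to 6 higher and 4 lower, beside 3 and 2, and these 3 and 2 calls remained. The share of all probes called moved as well. In E2 against control it went from 19.2% to 18.8% higher and from 16.5% to 18.3% lower. In E2+ICI against control it went from 8.92% to 3.41% higher and from 3.04% to 2.92% lower. In E2+ICI against E2 it went from 2.88% to 11.6% higher and from 2.54% to 12.6% lower.

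**Figure D5:**
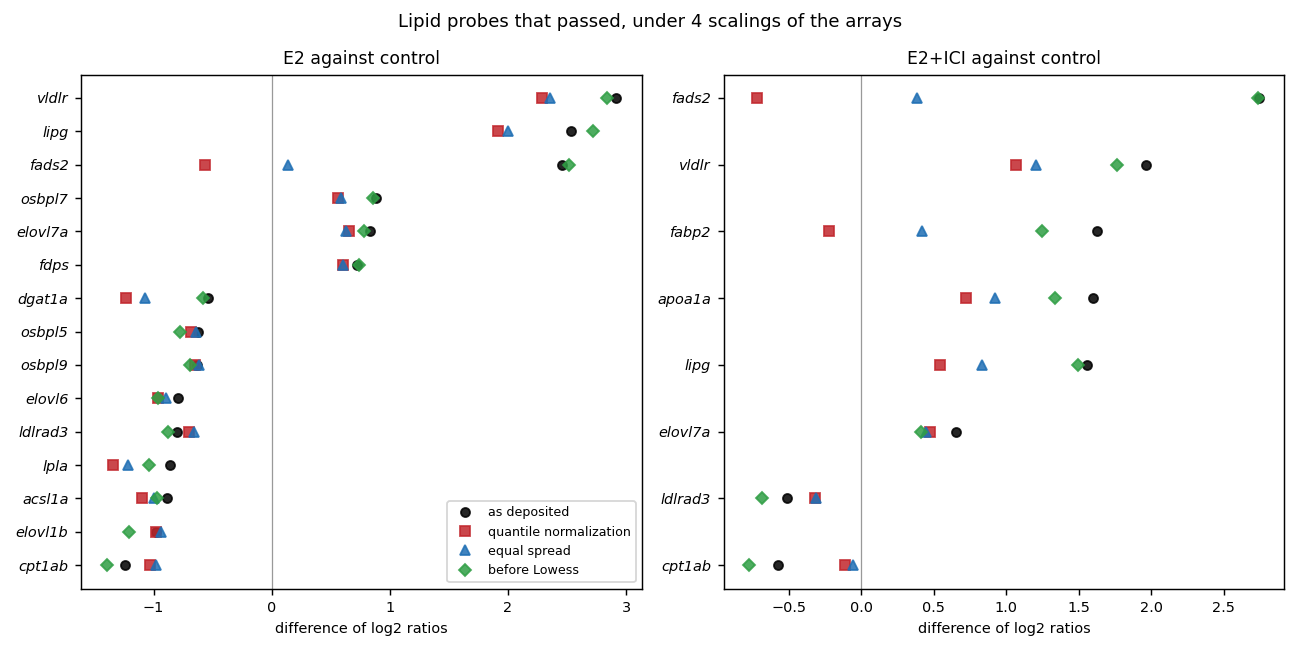
Difference of the mean log2 ratios for the lipid probes that passed in E2 against control (left) and in E2+ICI against control (right), as deposited, after quantile normalization, with arrays scaled to equal spread, and from the values before Lowess. fads2 (both panels) and fabp2 (right) are the probes whose quantile-normalized point lies on the other side of 0 from the deposited one.

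Genes of the same pathways that the name stems do not cover were followed in 7 lists with 86 probes for 75 genes. In E2 against control 16 of the 86 were higher and 18 lower (39.5%, beside 35.6% of all probes), in E2+ICI against control 10 were higher and 3 lower (15.1%, beside 12%), and in E2+ICI against E2 2 were higher and 2 lower (4.65%, beside 5.42%). For the counts by list that follow, 19.2% of all probes were higher and 16.5% lower in E2 against control. The 9 probes of fatty acid synthesis had 2 higher and 5 lower in E2. They include acaca, the acetyl-CoA carboxylase of the committed step, which was lower (difference -1.18, adjusted p = 0.000937), and the mitochondrial citrate carriers slc25a1a and slc25a1b, which moved in opposite directions (1.11 and -1.35). acsf2, an acyl-CoA synthetase, was higher by 1.21. Of 10 sterol probes 3 were higher and 2 lower. They include stard3, a late endosomal sterol carrier (difference 0.70), ggps1, of isoprenoid synthesis (0.81), abca1a, the cholesterol exporter (-1.55), and srebf2, the transcription factor of sterol synthesis (-0.58). Of 13 probes of mitochondrial and peroxisomal oxidation none was higher and 1 lower, phyh, a peroxisomal hydroxylase (difference -1.04), while its second probe differed by 0.16 (adjusted p = 0.597).

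The 19 glycerolipid and phospholipid probes had 6 higher and 2 lower in E2, led by the lysophosphatidylcholine acyltransferases lpcat4 (2.05 ± 0.19, adjusted p = 1.56e-05) and lpcat1 (1.79 ± 0.17, adjusted p = 1.80e-05), which remodel membrane phospholipids, and by the phospholipid synthesis genes ptdss1a (0.99) and chpt1 (0.58). These 4 probes also passed as higher in E2+ICI against control (1.33, 1.38, 0.84 and 0.74). The 2 lower probes in E2 were lpcat3, another lysophosphatidylcholine acyltransferase (-0.56, adjusted p = 0.0101), and pla2g12b (-0.69, adjusted p = 0.0201). Both were named after their values were seen. The 7 probes of lipoprotein assembly and clearance had 1 higher and 2 lower. These were p4hb, the subunit of the microsomal triglyceride transfer complex that is also protein disulfide isomerase (difference 1.41), lrp1aa, an endocytic receptor (-1.10), and sort1b, a sorting receptor, with -1.22 on 1 of its 2 probes (-0.42 on the other, adjusted p = 0.195). The 26 probes of lipid regulators had 3 higher and 7 lower. The nuclear receptor genes rxrba and nr5a2 were higher on 1 probe each (7.06 and 4.46), while their other probes differed by -0.29, -0.30 and -0.06 without passing. sirt6, a deacetylase, was higher by 0.99 and rxrab, a retinoid X receptor, was lower (difference -0.74). The other lower regulator probes were those of pparab (-0.80), pparg (-0.79), ppardb (-0.69), foxa2 (-0.64), rxrga (-0.60) and srebf2 (-0.58). They were named after their values were seen. Further ppardb probes differed by -0.49, -0.53 and -0.51 without passing, and the probes of pparaa and pparda did not pass. Of 4 fatty acid uptake probes slc27a2a, a fatty acid transporter, was higher by 0.90. For E2+ICI against E2 the 4 probes that passed were srebf2 (0.66), insig1 (0.97), slc25a1a (-0.61) and got2a (-0.72), of which insig1 and got2a were named after their values were seen.

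The other organ markers gave these counts in E2 against control: 2 of 5 exocrine pancreas probes lower, 3 of 5 testis probes higher and 1 lower, 2 of 22 brain probes higher and 2 lower, 3 of 6 lens and eye probes lower, 4 of 17 skeletal muscle probes lower and 1 higher, and 3 of 5 estrogen marker probes higher. Beside them the lipid probes of muscle and brain name, fabp3 and fabp7a, did not pass. The estrogen markers include vtg3, which helped to set the direction of the ratios, so its rise with E2 was not independent of that choice. The median of the 5 testis probes was -1.96 to -0.66 for control fish, -0.06 to 0.07 for E2 fish and -1.13 to -0.30 for E2+ICI fish. It rose with E2 as the oocyte median did, and whether the testis list measured testis RNA was not tested. Over all probes 19.2% were higher and 16.5% lower in E2 against control. With E2+ICI, 9 of 10 oocyte probes were higher than in control (8.92% of all probes) and 3 of 10 liver probes lower (3.04%). In E2+ICI against E2, 5 of 10 liver marker probes were higher (2.88% of all probes). Their part in the lipid results was not tested.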

How the data were processed

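RNA of each fish (Cy3) was hybridised with the common reference (Cy5) on a spotted array of long oligonucleotides. The deposited values are log2 ratios, which the authors made from GenePix images by local background subtraction and Lowess normalization within each array. A second deposited table holds log2 ratios before Lowess and was used as an alternative only. The authors chose arrays by scatter plot. Software versions were not given in the sources used here. No spot intensities were used, so depth is limited to the number of arrays.

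A single limma model (version 3.58.1, R 4.3.3) without a block took in the 10 arrays and gave 3 two-sided comparisons. It covered 16208 probes, those lacking no more than 6 values and holding 2 or more in every group. Adjustment was Benjamini-Hochberg over all probes, with a threshold of 0.05. Each replicate was 1 fish. Confidence intervals are 95% and come from the moderated fit. A fold is 2 to the power of the difference, given as its size. The fit was tested on simulated data. The percentile is the rank of a probe among the ratios of its own array. Oligonucleotide, promoter and protein sequences were not used here.

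Genes were named from the platform annotation, and all 43 lipid probes matched a RefSeq symbol. The members and all lists (7 pathway lists and 10 marker lists) were chosen with earlier results of these data known. Named were all the lipid genes, whether they passed or not, and up to 4 probes per other list with the smallest p for E2. Further list members were named after their values were seen, as stated where they occur. Values on every array were given for up to 4 probes per role and for probes of 1 gene that disagree. Alternatives were 4 scalings of the arrays, array weights, a robust prior, 3 treatments of missing or repeated values, fits of 2 groups only, a replicate block, SAM (the tool of the study, coded anew) and each array left out.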

Additional observations from a re-analysis of the deposited data

Results flagged for a closer look

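In groups of 4, chance alone sets 1 value apart in about 1 of 20 groups by the test used here, Dixon's test at the 95% level. The control groups of the 43 lipid probes were tested, except that of acad9, which had 3 control values. 6 lipid probes had a control fish set apart, and 5 of the 6 were the same fish. The share over all probes of the array was not counted, so these counts cannot be called particular to the lipid probes. In control fish 4, fabp7a read -0.36 (the other control fish -1.08 to -0.99), probe 5283835 of elovl5 read -1.02 (others 0.52 to 0.61), acsl3b read 1.62 (others 0.03 to 0.28), probe 5276375 of acss2 read -1.33 (others -0.31 to -0.19), and probe 5276291 of agpat5 read 1.2 (others 0.21 to 0.32). In control fish 2, probe 5282609 of ldlrad3 read -0.15 (others 0.11 to 0.14). None of these 6 probes passed in any comparison. Control array 4 had the widest spread of ratios over all probes (SD 1.07).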

How the results depend on the processing

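The 28 calls of lipid probes were recomputed under 22 alternatives. 9 calls kept their direction and stayed past the threshold under all alternatives that could be run. Of 596 recomputed values, 491 stayed past the threshold, 102 kept their direction without passing, and 3 reversed, all under quantile normalization: fads2 in E2 (-0.57) and in E2+ICI (-0.72) against control, and fabp2 in E2+ICI against control (-0.22). The cause was not tested. In E2+ICI against control, the number of higher probes was 6, and 1 with quantile normalization and 2 with equal spread. Over all probes the share called higher was 8.92%, and 3.41% and 4.36% under these 2 scalings. The number of lower probes was 2, and it was 1 before Lowess and 1 with complete probes only. It was 0 with quantile normalization, equal spread, the 2 groups alone, the replicate block and SAM (limma gave 4, 2, 3 and 4 at an unadjusted p under 0.05 in the first 4). The share of all probes called lower was 3.04%, and 2.71% before Lowess and 3.47% with complete probes only. Under the settings that gave 0 it was 1.03% to 2.92%. In E2+ICI against E2, the higher probes numbered 3, and 6 with quantile normalization, 5 with equal spread, 0 before Lowess (limma; 6 at an unadjusted p under 0.05), 9 with array weights and 7 with the 2 groups alone. Over all probes the share called higher was 2.88%, and 11.6%, 11.9%, 0.883%, 12.7% and 11.1% in that order. The lower lipid probes numbered 2, and 4 with quantile normalization, 1 before Lowess and 4 with array weights. Over all probes the share called lower was 2.54%, and 12.6%, 1.46% and 11% in that order.

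With 1 array left out at a time, the counts for E2 against control were 5 to 7 higher and 5 to 10 lower, the 5 without E2+ICI fish 1, where fewer lipid probes had enough values. Over all probes the shares were 15.6% to 22.4% higher and 11.3% to 21.7% lower. For E2+ICI against control the lipid counts were 4 to 7 higher and 0 to 3 lower (limma; 1 to 4 lower at an unadjusted p under 0.05 where none passed). Over all probes the shares were 5.05% to 11.4% higher and 0.832% to 3.68% lower. For E2+ICI against E2 they were 0 to 4 higher and 0 to 2 lower, and both were 0 without any 1 of the E2 fish (limma; 4, 4 and 4 higher and 3, 4 and 2 lower at an unadjusted p under 0.05). Over all probes, 0.634% to 0.825% were then called higher and 0.445% to 0.631% lower, beside 2.88% and 2.54% with all arrays. A fish outside a comparison enters it only through the filter, the spread estimated by the single model and the adjustment over all probes.

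No pairing by the replicate numbers 1 to 3 was seen. Deviations of same-numbered fish from their group means correlated at -0.23 to 0.17, over 0.1 in 1 of 9 pairs. For fish of different number the range was -0.27 to 0.33, over 0.1 in 9 of 24 pairs. With 3 or 4 fish in a group this cannot exclude a block. With the number as a block, 8 lipid probes were higher and 10 lower in E2 (21.1% and 19.9% of all probes). In E2+ICI against control 7 were higher and 0 lower (9.8% and 2.78% of all probes). In E2+ICI against E2 the counts were 4 and 2 (6.81% and 5.82% of all probes). Over all probes the calls went from 5773 to 6648, 1939 to 2040 and 879 to 2047. Number 4 was held by control fish 4 alone, so with the block that fish no longer entered the comparisons. With control fish 4 left out and no block, the shares of all probes higher and lower were 22.4% and 21.7% in E2 against control. They were 11.4% and 3.68% in E2+ICI against control and 8.88% and 7.78% in E2+ICI against E2. A block effect and the loss of that fish cannot be told apart in these counts. SAM was not counted for E2+ICI against E2, where 20 permutations allow a smallest q of 0.0545.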
